A study of Homo sapiens with 6 samples.

Results

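Genes that move lactate across the plasma membrane, interconvert lactate and pyruvate, or let pyruvate into the mitochondrial oxidation route were followed in MDA-MB-231 cells with and without added CB1, a cannabinoid receptor that signals through G proteins and is encoded by CNR1. The 10 genes, of 58735 in the deposited tables, were SLC16A1, SLC16A3, BSG, LDHA, LDHB, MPC1, MPC2, PDHA1, PDK1 and PDK3. They were chosen by gene name around SLC16A1, with the differences between CB1 and Vector in these same libraries already known, so their CB1 against Vector values are given as a description and without a test. Each name matched 1 protein-coding row. MDA-MB-231 is a triple-negative breast cancer (TNBC) line, and 3 libraries came from cells overexpressing CB1 (called CB1, replicates 1 to 3) and 3 from empty vector cells (called Vector, replicates 1 to 3). In the treatment labels DMSO stands only against Vector and CB1 only against the other group, so vehicle and CB1 cannot be told apart. According to the study's methods, the CB1 line was made with a lentiviral pCDH construct, stable lines were selected with puromycin, and pooled clones were screened, so a difference between lines and the effect of CB1 cannot be told apart either. No label says that the replicates came from separate cultures, so p-values rest on the spread between these libraries, and that spread may be technical.

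Lactate is made from pyruvate in the cytosol by lactate dehydrogenase, a tetramer of LDHA and LDHB subunits, and leaves or enters the cell together with a proton through monocarboxylate transporters. SLC16A1 encodes MCT1, which carries lactate and pyruvate in either direction, SLC16A3 encodes MCT4, known as the exporter of highly glycolytic cells, and BSG encodes basigin, the chaperone that both need to reach the cell surface. Pyruvate that is not reduced to lactate enters mitochondria through the carrier formed by MPC1 and MPC2, and the pyruvate dehydrogenase complex, of which PDHA1 is a catalytic subunit, turns it into acetyl-CoA. PDK1 and PDK3 are kinases that switch this complex off by phosphorylating PDHA1.

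The sequence upstream of a start site is shown for 6 members because MYC, USF and hypoxia-inducible factors, which are known to act on glycolytic genes, bind short motifs that can be read in it. Promoter sequences from RefSeq (GRCh38.p14) were matched for 9 of the 10 members. The member without a match was SLC16A1, so the motifs below do not describe its promoter. The motifs searched on both strands were ACGTG and GCGTG, which form the core of hypoxia response elements, and CACGTG, the E-box, which contains ACGTG on both strands and so adds 2 matches to it. The 250 bases upstream of the start are printed 5′ to 3′ on the strand of the gene, with every match to one of the 3 motifs in capitals. RefSeq gives 18 start windows for the 9 members. Those printed were picked for their matches, being the 5 windows that hold ACGTG, together with the window of LDHB, the sister subunit of LDHA, so their counts are not a fair sample of the members' promoters. The windows lie at chr11:18394313-18394562 (plus strand) for LDHA, chr17:82228792-82229041 (plus) for SLC16A3, chr19:572346-572595 (plus) for BSG, chr2:172555840-172556089 (plus) for PDK1, chrX:24465036-24465285 (plus) for PDK3 and chr12:21657843-21658092 (minus) for LDHB.
LDHA: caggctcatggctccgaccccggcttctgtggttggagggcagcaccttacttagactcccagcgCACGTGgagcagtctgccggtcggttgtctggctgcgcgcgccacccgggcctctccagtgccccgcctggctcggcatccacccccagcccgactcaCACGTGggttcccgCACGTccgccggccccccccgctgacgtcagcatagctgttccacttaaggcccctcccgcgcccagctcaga
SLC16A3: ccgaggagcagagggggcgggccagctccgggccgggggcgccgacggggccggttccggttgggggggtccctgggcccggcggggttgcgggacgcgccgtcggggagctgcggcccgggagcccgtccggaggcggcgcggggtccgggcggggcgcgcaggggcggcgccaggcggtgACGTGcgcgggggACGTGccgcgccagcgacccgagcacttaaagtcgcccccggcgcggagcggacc
BSG: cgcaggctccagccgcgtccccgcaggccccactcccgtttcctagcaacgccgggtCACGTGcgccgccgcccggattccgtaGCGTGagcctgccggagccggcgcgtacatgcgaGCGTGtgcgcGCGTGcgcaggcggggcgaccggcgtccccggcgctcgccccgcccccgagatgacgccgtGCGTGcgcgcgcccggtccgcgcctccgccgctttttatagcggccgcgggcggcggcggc
PDK1: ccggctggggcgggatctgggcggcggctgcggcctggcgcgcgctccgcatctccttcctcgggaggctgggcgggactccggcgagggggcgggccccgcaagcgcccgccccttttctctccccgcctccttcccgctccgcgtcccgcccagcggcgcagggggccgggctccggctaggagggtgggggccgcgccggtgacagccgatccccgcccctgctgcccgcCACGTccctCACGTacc
PDK3: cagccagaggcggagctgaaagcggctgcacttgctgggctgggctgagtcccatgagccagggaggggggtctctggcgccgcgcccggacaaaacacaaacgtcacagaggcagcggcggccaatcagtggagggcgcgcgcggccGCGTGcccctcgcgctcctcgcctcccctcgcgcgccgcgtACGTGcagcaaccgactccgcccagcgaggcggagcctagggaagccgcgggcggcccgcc
LDHB: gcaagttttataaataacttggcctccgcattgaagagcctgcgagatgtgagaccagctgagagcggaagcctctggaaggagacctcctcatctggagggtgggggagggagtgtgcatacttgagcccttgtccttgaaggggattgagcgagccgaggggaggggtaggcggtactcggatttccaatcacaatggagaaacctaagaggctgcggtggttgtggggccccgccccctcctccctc

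The LDHA window held 5 ACGTG matches, 4 of them within 2 E-boxes. The SLC16A3 and PDK1 windows held 2 ACGTG matches each and no E-box, the BSG window held 1 E-box and 4 GCGTG matches, and the PDK3 window held 1 match each to ACGTG and GCGTG. No match to any of the 3 was found in these letters for LDHB. The other 12 windows, which are not printed, held no ACGTG. They comprise 4 of 5 for SLC16A3, 1 of 2 each for BSG, LDHA and PDK1, and every window of MPC1, MPC2 and PDHA1. Over all 18 windows, ACGTG was in 27.8%, GCGTG in 38.9% and CACGTG in 11.1%, and over 35116 RefSeq promoter windows taken in the same way, ACGTG was in 18.51%, GCGTG in 32.22% and CACGTG in 6.34%. Several windows belong to 1 gene, 2 of those of MPC2 nearly coincide, and no test was made. Each of the 3 motifs contains CG, and the windows differ in how often CG occurs. Counted over 300 bases, which run past the start, the median of all RefSeq windows was 14 CG. The printed windows held 29 for LDHA, 51 for SLC16A3, 54 for BSG, 38 for PDK1, 39 for PDK3 and 14 for LDHB. The part of CG content in the motif shares was not tested. The matches describe the sequence and are not evidence of binding.

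The libraries held 16957881 to 18833661 counts, and 15289 genes were tested, those whose 6 libraries averaged 0.5 FPKM or more. CNR1 was at 6465, 7703 and 7353 counts in CB1 and 7, 6 and 4 in Vector. Of 7 markers of MDA-MB-231 all were detected, with 3 higher and 2 lower in CB1 at an edgeR adjusted p under 0.05. The shares over all tested genes were 24.4% higher and 25.4% lower. The marker that differed most was S100A4, with 12.1 ± 1.56 CPM in CB1 and 41.9 ± 1.78 CPM in Vector (SD, n = 3 each). ESR1 had at most 5 counts in any library, PGR at most 15, and ERBB2 averaged 86.9 ± 3.56 CPM in CB1 and 84.0 ± 1.16 CPM in Vector (SD, n = 3 each). Mitochondrial transcripts took 6.51% to 6.73% of counts in CB1 and 6.56% to 6.61% in Vector. On the second principal component CB1 replicate 1 (20.2) lay away from CB1 replicates 2 and 3 (-10.4 and -13.8), and results that rest on it are also given without it.

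SLC16A1, on chromosome 1 from 112911847 to 112957013, was the member that differed most between the groups. It had 318, 283 and 322 counts in the CB1 libraries and 33, 36 and 34 in the Vector libraries. Every CB1 library was far above every Vector library, and the 3 Vector libraries lay close together at a low level. Scaled to library size (CPM, counts scaled to TMM-adjusted library totals), SLC16A1 averaged 17.5 ± 1.74 CPM in CB1 and 1.95 ± 0.0659 CPM in Vector (SD, n = 3 each), a difference of 3.16 ± 0.15 on the log2 scale (SE of the edgeR fit) or 8.92-fold. By this difference it ranked 40 among 11706 protein-coding genes tested. Its Vector mean of 0.372 FPKM lies below the minimum of 0.5 FPKM, so it entered the test only through the CB1 libraries, in which it averaged 3.30 FPKM. The log2 difference ran from 3.11 to 3.24 when each library was left out in turn, and was 3.11 without CB1 replicate 1.

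Reads of SLC16A1 and of its antisense neighbour cannot be told apart with certainty where these genes overlap, from 112956415 to 112957013. No source used here names the strand setting of the counting. The rest of SLC16A1 lies outside that stretch. The antisense gene SLC16A1-AS1, which overlaps SLC16A1, had 23, 35 and 40 counts in CB1 and 3, 2 and 0 in Vector, below the level needed for the test. The pseudogene SLC16A1P1 had 0 counts in all 6 libraries.

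Some genes with little or no expression in MDA-MB-231 were also higher in the CB1 libraries. Among 12 markers of the human embryonic kidney line that the study used to produce lentivirus, 6 were tested and all 6 were called higher in CB1, where 24.4% of all tested genes were called higher. That count was largely fixed beforehand and nothing is read from it, because 4 of the 6 passed the abundance minimum only through the CB1 libraries. The summed level of the 12 markers was 27.3 to 30.4 FPKM in CB1 and 13.5 to 14.3 FPKM in Vector. Single markers ranged widely. IRS4, an insulin receptor substrate that is abundant in that line, had 203, 501 and 429 counts in CB1 and 14, 10 and 15 in Vector, PAX2 had 15, 8 and 11 in CB1 and 2, 0 and 1 in Vector, while ELAVL4 and CDH8 were each at 0 in 5 of the 6 libraries. The 4 genes of the short arm of chromosome 9, where MDA-MB-231 is known to carry a deletion around CDKN2A (CDKN2A, CDKN2B, MTAP and KLHL9) summed to 5.19 to 7.22 FPKM in CB1 and 0.225 to 0.540 FPKM in Vector, and 1 of 4, CDKN2A, was tested and was called higher, having also passed the minimum only through CB1. The part of such transcripts in the SLC16A1 difference was not tested, and in bulk libraries a different number of cells of one kind and a different amount of RNA per cell cannot be told apart.

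**Figure D1:**
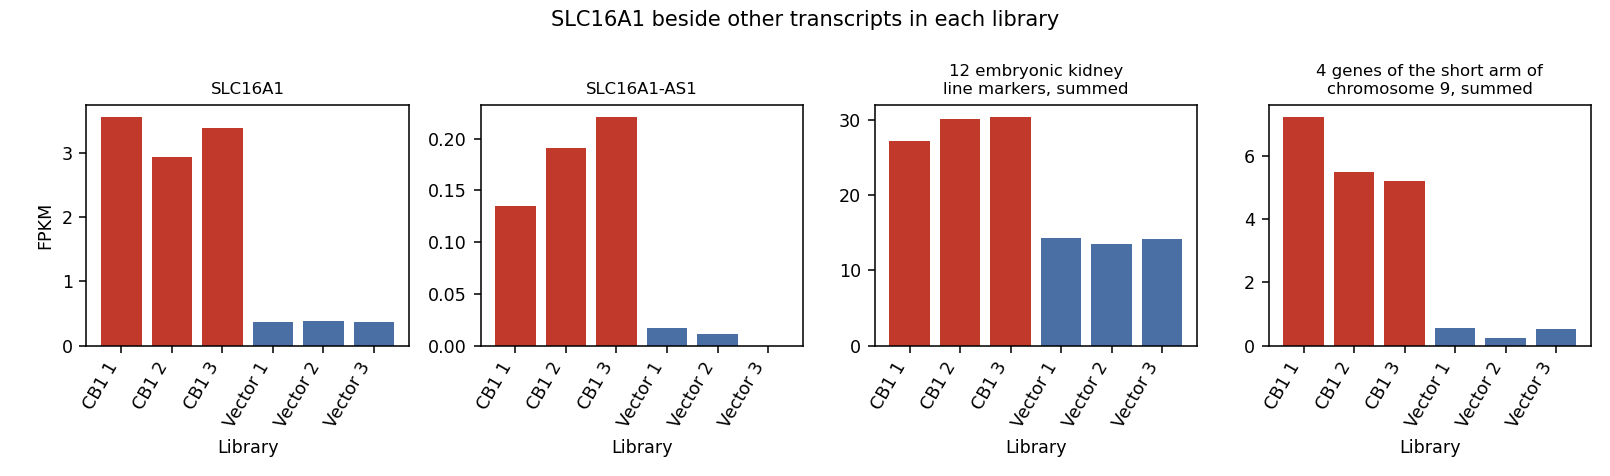
FPKM (vertical axes, starting at 0) in each of the 6 libraries for SLC16A1, its antisense gene SLC16A1-AS1, the sum of 12 embryonic kidney line markers and the sum of 4 genes of the short arm of chromosome 9, with 1 bar per library, CB1 in red and Vector in blue. All 3 CB1 bars exceed all 3 Vector bars in each panel, and the kidney marker sum is 27.3 to 30.4 FPKM in CB1 and 13.5 to 14.3 FPKM in Vector.

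SLC16A3 was much more abundant than SLC16A1 in both groups and was also higher in CB1. On chromosome 17 from 82228397 to 82261129, it had 778.7, 714.8 and 686.0 CPM in CB1 and 376.0, 356.4 and 380.0 CPM in Vector. The groups did not overlap, and the difference was 0.97 ± 0.07 on the log2 scale (1.96-fold). Measured per length, SLC16A1 made up 3.92% ± 0.380 of the FPKM of SLC16A1 and SLC16A3 together in CB1 and 0.884% ± 0.0585 in Vector (SD, n = 3 each). The summed level of both transporters was 84.4 ± 6.14 FPKM in CB1 and 42.2 ± 1.35 FPKM in Vector, nearly all of it SLC16A3. SLC16A3 overlaps CSNK1D on the opposite strand, which had 10427 counts over the CB1 libraries and 9439 over the Vector libraries.

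BSG, the chaperone of both transporters, lies on chromosome 19 from 571277 to 583493. It had 1215, 1101 and 1021 CPM in CB1 and 819.1, 861.4 and 851.1 CPM in Vector. The lowest CB1 library lay above the highest Vector library, and the difference was 0.40 ± 0.07 on the log2 scale (1.32-fold). Without CB1 replicate 1, the highest of the CB1 libraries for BSG, it was 0.33 on the log2 scale. BSG overlaps the antisense gene AC009005.1, which had 215 counts over the CB1 libraries and 169 over the Vector libraries.

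The lactate dehydrogenase subunits did not follow each other. LDHA, on chromosome 11 from 18394388 to 18408425, favours the reduction of pyruvate to lactate, and had 2155, 1928 and 1934 CPM in CB1 and 1269, 1372 and 1341 CPM in Vector. The groups did not overlap, and LDHA was 1.51-fold higher in CB1 (0.60 ± 0.07 on the log2 scale). Its 6 annotated pseudogenes together held at most 0.114% as many counts as LDHA in any library.

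LDHB, on chromosome 12 from 21635342 to 21757857, encodes the subunit that favours the oxidation of lactate. It had 48.8, 33.5 and 35.4 CPM in CB1 and 42.9, 47.3 and 44.6 CPM in Vector. CB1 replicate 1 was above all Vector libraries while the other 2 CB1 libraries were below all of them. The log2 difference was -0.20 ± 0.12 with all libraries and -0.38 without CB1 replicate 1, where LDHB was called lower. LDHB was also called lower by limma on TPM (-0.34) and without the abundance minimum (-0.24). It overlaps the antisense gene AC010197.1, which had 44 counts over the CB1 libraries and 127 over the Vector libraries.

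As a share of the FPKM of both subunits, LDHB was 4.501%, 3.49% and 3.67% in the CB1 libraries and 6.57%, 6.70% and 6.47% in the Vector libraries. The shares did not overlap, and CB1 replicate 1 lay between the other CB1 libraries and Vector. LDHA and LDHB summed to 337.4 ± 26.0 FPKM in CB1 and 232.1 ± 10.2 FPKM in Vector (SD, n = 3 each).

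**Figure D2:**
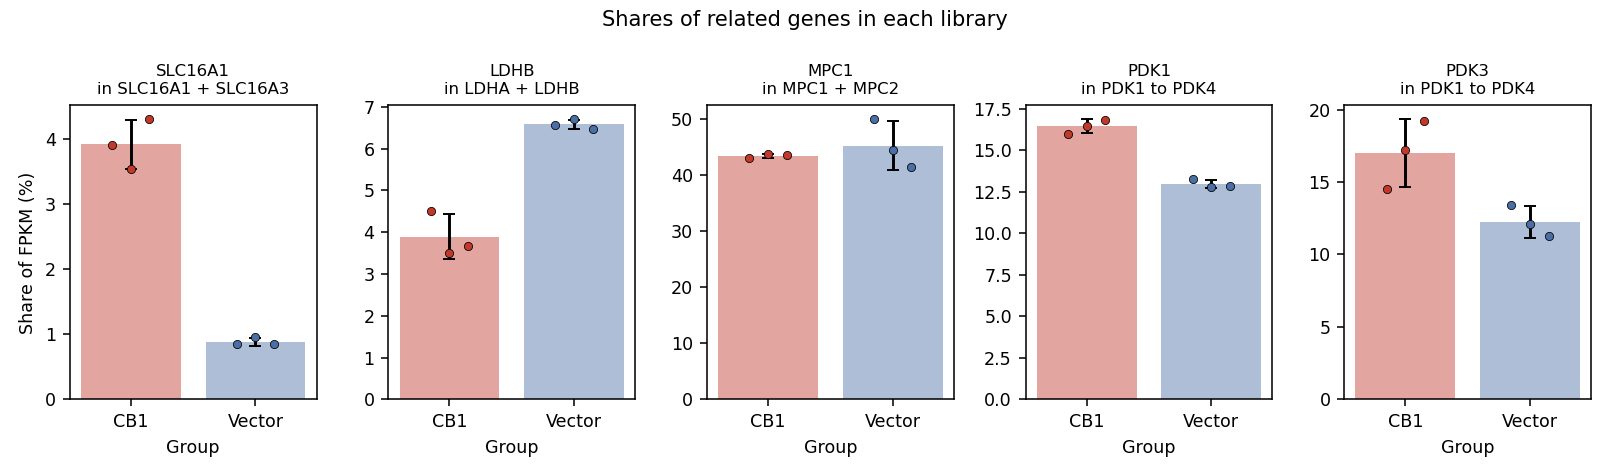
Share of FPKM in percent (vertical axes, starting at 0) of SLC16A1 among SLC16A1 and SLC16A3, LDHB among LDHA and LDHB, MPC1 among MPC1 and MPC2, and PDK1 and PDK3 each among PDK1 to PDK4, in CB1 (left, red) and Vector (right, blue). Bars are means, error bars SD over 3 libraries and points the libraries, and the mean shares of LDHB are 3.89% in CB1 and 6.58% in Vector.

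Levels of the mitochondrial pyruvate carrier overlapped between the groups. MPC1, on chromosome 6 from 166364919 to 166383013, had 12.7, 10.3 and 10.9 CPM in CB1 and 11.97, 10.9 and 9.24 CPM in Vector. The groups overlapped, and the log2 difference of 0.077 ± 0.13 turned to -0.0013 with library totals alone, -0.047 with limma on TPM, -0.011 without CB1 replicate 1 and -0.018 without Vector replicate 3. MPC2, on chromosome 1 from 167916729 to 167937040, had 27.8, 22.1 and 23.3 CPM in CB1 and 19.9, 22.7 and 21.7 CPM in Vector. These values overlapped as well, with a log2 difference of 0.19 ± 0.11, or 0.08 without CB1 replicate 1. MPC2 overlaps DCAF6 on the opposite strand, which had 3450 counts over the CB1 libraries and 4575 over the Vector libraries. MPC1 took 43.4% ± 0.370 of the FPKM of the pair in CB1 and 45.2% ± 4.33 in Vector (SD, n = 3 each).

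PDHA1, the catalytic subunit gene on chromosome X from 19343893 to 19361705, had 73.6, 62.1 and 66.2 CPM in CB1 and 57.3, 58.8 and 58.2 CPM in Vector. The groups did not overlap, but the lowest CB1 library was only slightly above the highest Vector library. The log2 difference was 0.21 ± 0.08 (1.16-fold). Its call as higher was lost in 11 of 16 alternatives, among them those without CB1 replicate 1 (0.14), CB1 replicate 3 (0.23) or Vector replicate 1, 2 or 3 (0.20, 0.22 and 0.21), and the log2 difference ran from 0.08 to 0.27 over all of them. PDHA1 overlaps MAP3K15 on the opposite strand, which had 257 counts over the CB1 libraries and 445 over the Vector libraries.

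Both kinases among the members were higher in CB1. PDK1, on chromosome 2 from 172555373 to 172608669, had 29.6, 32.8 and 33.1 CPM in CB1 and 20.05, 20.04 and 19.97 CPM in Vector. The Vector libraries were nearly equal and all CB1 libraries were above them, with a log2 difference of 0.67 ± 0.08 (1.59-fold). PDK1 overlaps the antisense gene AC078883.1, which had 107 counts over the CB1 libraries and 59 over the Vector libraries. PDK3, on chromosome X from 24465221 to 24541862, had 8.95, 11.4 and 12.5 CPM in CB1 and 6.76, 6.29 and 5.82 CPM in Vector. The groups did not overlap for PDK3 either, CB1 replicate 1 being the CB1 library nearest to Vector, and the log2 difference was 0.80 ± 0.15 (1.74-fold).

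Among the 4 kinases of this family, PDK1 took 16.4% ± 0.422 of the FPKM in CB1 and 12.97% ± 0.259 in Vector, and PDK3 took 16.97% ± 2.35 in CB1 and 12.2% ± 1.11 in Vector (SD, n = 3 each). PDK2 held 34.1% ± 0.570 in CB1 and 40.6% ± 2.74 in Vector. The 4 kinases together summed to 13.05 ± 0.457 FPKM in CB1 and 10.52 ± 0.234 FPKM in Vector. The sum of the opposing phosphatases PDP1 and PDP2 was 12.6 ± 1.41 FPKM in CB1 and 19.7 ± 0.614 FPKM in Vector.

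**Figure D3:**
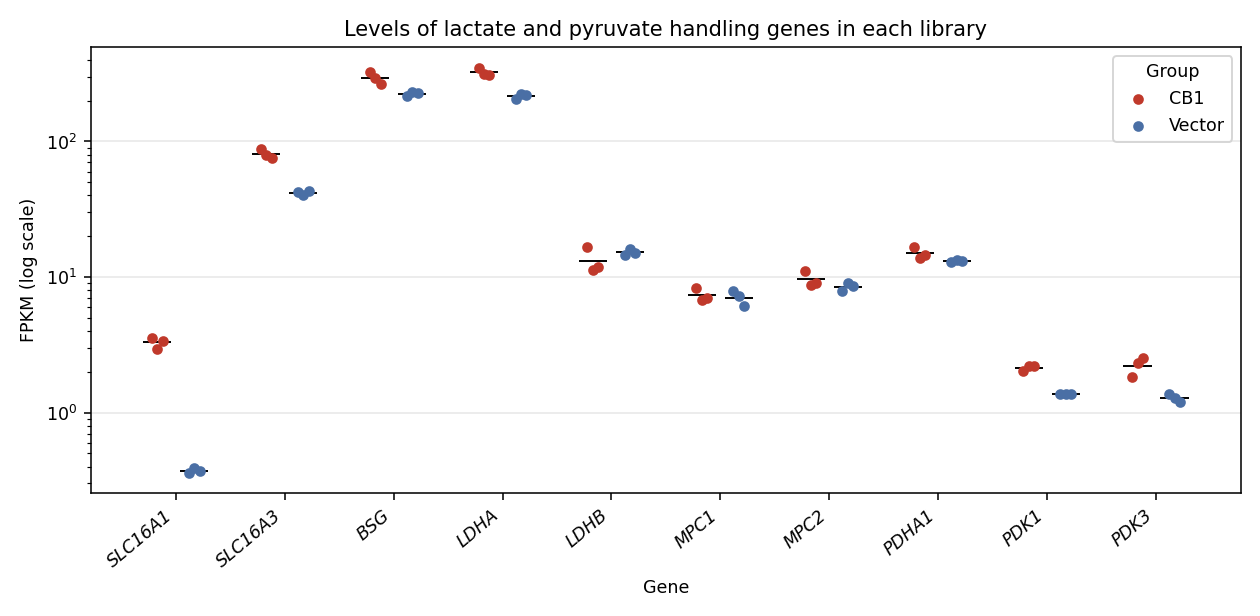
FPKM (vertical axis, log scale) of the 10 members in each library, with CB1 (red) left of Vector (blue), 1 point per library and a black line at the mean of 3. SLC16A1 has the widest gap (means of 3.30 FPKM in CB1 and 0.372 FPKM in Vector), whereas the points of LDHB, MPC1 and MPC2 overlap between the groups.

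In all, 7 of the 10 members were called higher in CB1 and 0 were called lower, against 24.4% of all 15289 tested genes called higher and 25.4% called lower (edgeR quasi-likelihood test, adjusted p under 0.05). CB1 and Vector libraries did not overlap, with CB1 higher, for the same number of 7 members, and with CB1 lower for 0, against 28.6% and 30.2% of all tested genes. Nothing is read from these counts, because the members were picked with this comparison known and SLC16A1 had passed the minimum only through CB1. The median log2 difference was 0.50 over the members and -0.0020 over all tested genes. Without CB1 replicate 1, 6 members were called higher and 1, LDHB, lower. Among all called genes the higher ones made up 49.0%, or 39.6% with library totals alone and 35.2% with limma on TPM, and SLC16A1, SLC16A3, BSG, LDHA, PDK1 and PDK3 remained higher under both.

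The order of levels per length, read as FPKM, differed mainly in the place of SLC16A1. In CB1 the order was LDHA (324.2), BSG (294.1), SLC16A3 (81.1), PDHA1 (15.03), LDHB (13.2), MPC2 (9.59), MPC1 (7.35), SLC16A1 (3.30), PDK3 (2.22) and PDK1 (2.14 FPKM). In Vector it was BSG (225.4), LDHA (216.8), SLC16A3 (41.8), LDHB (15.3), PDHA1 (13.1), MPC2 (8.51), MPC1 (7.03), PDK1 (1.36), PDK3 (1.29) and SLC16A1 (0.372 FPKM). Neighbours whose libraries overlapped in level were LDHA and BSG, PDHA1 and LDHB, and PDK3 and PDK1 in CB1, and BSG and LDHA, and PDK1 and PDK3 in Vector. SLC16A1 was thus the lowest member in Vector but lay above both kinases in CB1, without overlap with PDK3.

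Spread between replicates was wider in CB1. The median coefficient of variation of the members was 9.33% in CB1 and 3.71% in Vector, against 11.4% in CB1 and 5.71% in Vector for all tested genes. It was largest in CB1 for LDHB (21.2% in CB1, 5.03% in Vector) and PDK3 (16.8% in CB1, 7.47% in Vector). CB1 replicate 1 was the highest CB1 library for 8 members and the lowest for PDK1 and PDK3, whereas over all tested genes it was the highest CB1 library for 40.5% and the lowest for 39.2%.

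Other genes of the same routes, 60 in 7 lists, moved in both directions. Of these, 42 were tested, 11 were higher, 17 lower and 14 not called, and the median log2 difference was -0.17. The higher genes were 39.3% of those called, or 21.7% with limma on TPM, where 5 were higher and 18 lower. Over all 15289 tested genes, 24.4% were called higher and 25.4% lower, and the counts of each list below stand beside these shares. The 11 higher genes include 1 that passed the abundance minimum only through CB1. The 17 lower genes include PPARGC1A, which passed that minimum only through Vector, and nothing is read from these counts.

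Of 16 further monocarboxylate transporters and partners 7 were tested, and 2 were higher and 2 lower. Among the 7, 1 passed the abundance minimum only through CB1, so its call as higher was largely fixed beforehand. SLC16A6, a ketone body carrier, rose by 0.88 ± 0.22 on the log2 scale (edgeR adjusted p = 0.00556, and 0.0608 by limma on TPM). EMB, embigin, which is a chaperone like BSG and the usual partner of MCT2, fell to 15.8 ± 1.53 CPM in CB1, against 23.6 ± 1.103 CPM in Vector (SD, n = 3 each, log2 difference -0.58, edgeR adjusted p = 4.16e-04).

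SLC16A13 fell less (log2 difference -0.40, edgeR adjusted p = 0.0243). That call was lost with DESeq2 (adjusted p = 0.0588) and without CB1 replicate 2 (0.0849) or Vector replicate 1 (0.0523), 2 (0.0966) or 3 (0.0586). SLC16A7, which encodes the high-affinity transporter MCT2, had 33.1 ± 5.81 CPM in CB1 and 31.4 ± 0.471 CPM in Vector and did not pass (log2 difference 0.079). Without CB1 replicate 1 it did (0.22, adjusted p = 0.0175), and without CB1 replicate 3 its sign turned (-0.016). SLC16A5 had a log2 difference of -0.10 and did not pass.

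Of 6 genes for other lactate dehydrogenases and the methylglyoxal route, which yields D-lactate, 3 were tested and 1 was lower. This was GLO1, glyoxalase 1, with 256.6 ± 6.77 CPM in CB1 and 308.5 ± 17.1 CPM in Vector (log2 difference -0.27, edgeR adjusted p = 0.00636, or 0.0560 without Vector replicate 2). HAGH, the next enzyme of that route, did not pass (0.029, turning to -0.050 with library totals alone, -0.10 with limma on TPM, -0.016 without the abundance minimum and -0.067 without CB1 replicate 1). LDHD, the D-lactate dehydrogenase, had 17, 38 and 19 counts in CB1 and 34, 27 and 49 in Vector and did not pass, except without CB1 replicate 2 (-1.001, adjusted p = 0.0414).

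No other tested subunit of the pyruvate dehydrogenase complex was higher in CB1. Of 6 listed genes 4 were tested, 3 were lower and 0 higher. DLAT, the acetyltransferase core, fell to 82.0 ± 6.78 CPM in CB1, against 107 ± 3.09 CPM in Vector (SD, n = 3 each, log2 difference -0.38, edgeR adjusted p = 0.00162). DLD, the dehydrogenase that this complex shares with others, fell to 100.9 ± 9.17 CPM in CB1, against 127.8 ± 3.39 CPM in Vector (-0.34, adjusted p = 0.00325). PDHB, the partner of PDHA1 in the catalytic heterotetramer, was lower by the main test (-0.25, adjusted p = 0.0436). The PDHB call was lost in 9 of 16 alternatives, including those without CB1 replicate 2 (adjusted p = 0.181) or 3 (0.142) or Vector replicate 1 (0.127), 2 (0.113) or 3 (0.0896). CB1 replicate 1 was the highest CB1 library for PDHB (115.3 CPM, beside 88.43 and 92.18). Without it the log2 difference was -0.38 and the call was kept (edgeR adjusted p = 1.34e-07). PDHX did not pass (-0.17), except with library totals alone (adjusted p = 0.0482) and without CB1 replicate 3 (-0.25, adjusted p = 0.0259).

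The other 5 kinases, phosphatases and regulators of the complex were all tested, with 1 higher and 1 lower. PDP1, the phosphatase that reactivates PDHA1, had 581, 801 and 785 counts in CB1 and 1360, 1436 and 1297 in Vector. It fell to 40.8 ± 5.72 CPM in CB1, against 77.5 ± 3.33 CPM in Vector (SD, n = 3 each, log2 difference -0.92 ± 0.10, edgeR adjusted p = 1.57e-05), and its lowest Vector library was well above its highest CB1 library. PDK4, another kinase, was higher by the main test (0.25, adjusted p = 0.0353). The PDK4 call was lost in 10 of 16 alternatives, including those without CB1 replicate 1 (adjusted p = 0.0511) or 2 (0.0735) or Vector replicate 1 (0.0772), 2 (0.126) or 3 (0.105). PDP2 did not pass (-0.085, or -0.012 without CB1 replicate 1). The phosphatase regulator PDPR (-0.28) passed only without the abundance minimum and with a replicate block. PDPR had 44.33, 70.26 and 70.25 CPM in CB1, and without CB1 replicate 1 its log2 difference was -0.093.

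**Figure D4:**
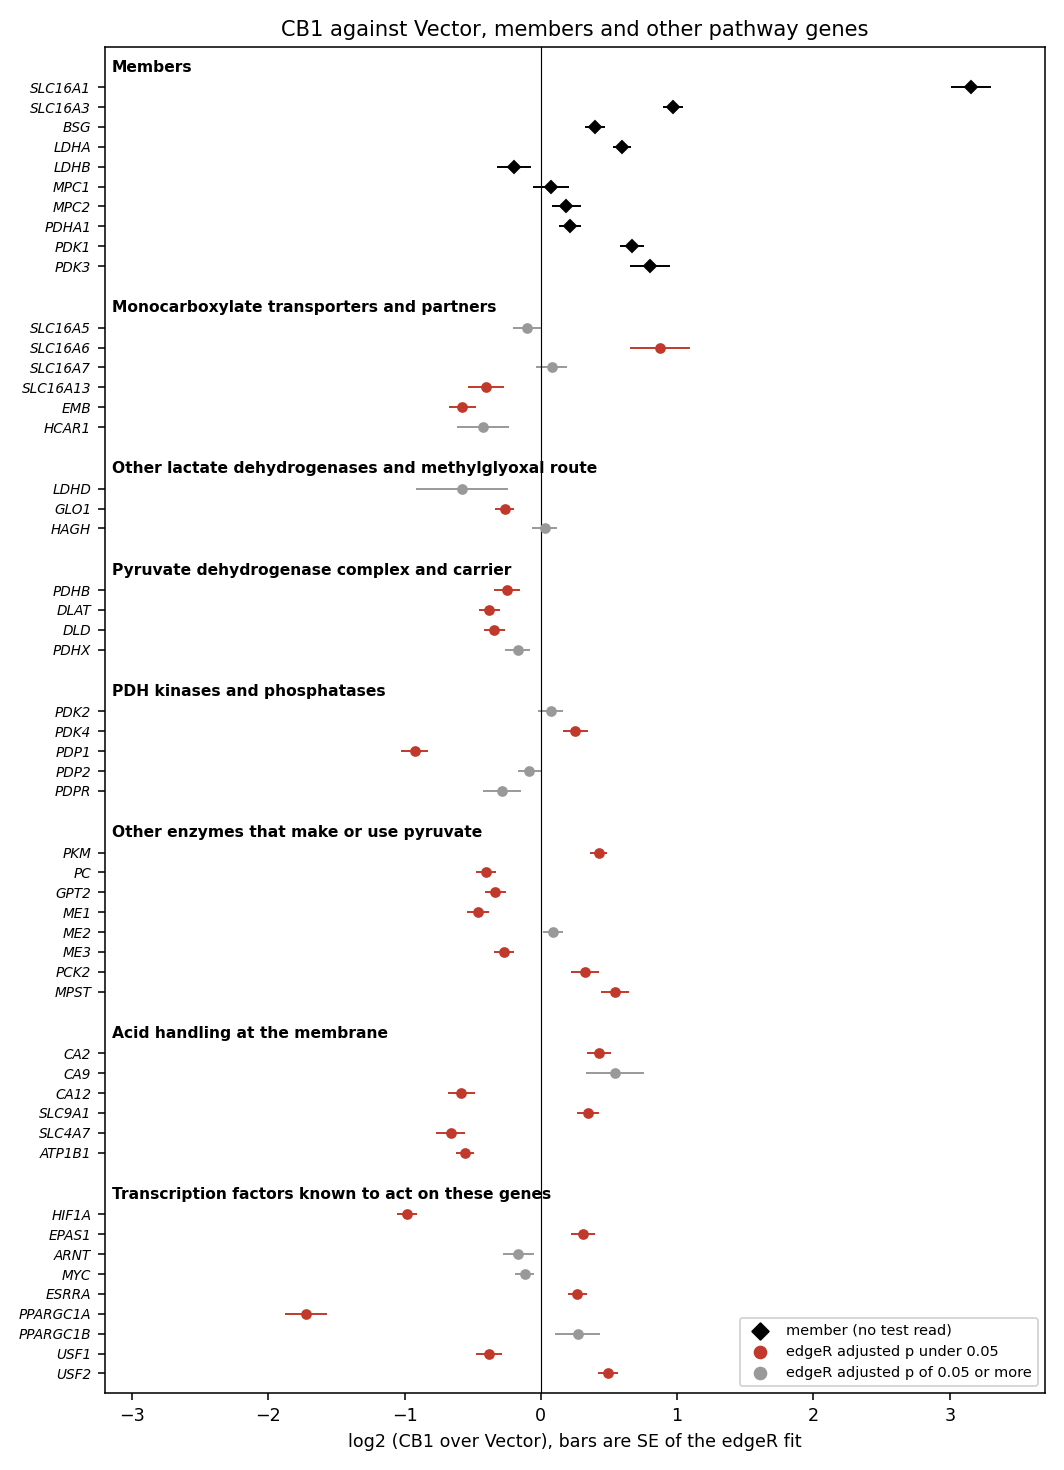
Log2 difference of CB1 over Vector (horizontal axis) with the SE of the edgeR fit as bars, for the 10 members (black diamonds) and the tested genes of the 7 lists but 1 (red circles at an edgeR adjusted p under 0.05, grey circles otherwise). SLC16A1 lies farthest to the right at 3.16, and PPARGC1A (-1.73), HIF1A (-0.98) and PDP1 (-0.92) lie farthest to the left.

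Among 11 other enzymes that make or use pyruvate, 8 were tested, with 3 higher and 4 lower. PKM, the pyruvate kinase that makes pyruvate in the last step of glycolysis, averaged 3237 ± 172 CPM in CB1 and 2414 ± 18.5 CPM in Vector (SD, n = 3 each, log2 difference 0.42, edgeR adjusted p = 1.39e-04). MPST, which makes pyruvate from mercaptopyruvate, was higher as well (0.55, adjusted p = 9.07e-04). The malic enzyme ME1 (-0.46, adjusted p = 5.01e-04) and pyruvate carboxylase, PC (-0.40, adjusted p = 8.70e-04), were lower. The mitochondrial malic enzyme ME2 did not pass (0.092, or -0.034 with limma on TPM).

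Lactate leaves with a proton, and 6 of 7 listed genes for acid handling at the membrane were tested, with 2 higher and 3 lower. ATP1B1, the sodium pump subunit, fell by 0.56 on the log2 scale (edgeR adjusted p = 3.75e-05), the bicarbonate transporter gene SLC4A7 by 0.66 (adjusted p = 2.63e-04) and carbonic anhydrase 12, CA12, by 0.58 (adjusted p = 3.34e-04). CA2, the cytosolic carbonic anhydrase known to bind MCT1, was higher (0.43, adjusted p = 0.00119). CA9, a hypoxia-induced carbonic anhydrase, had 146, 131 and 90 counts in CB1 and 78, 68 and 105 in Vector, so that the groups overlapped, and did not pass (0.54, adjusted p = 0.0511). It passed in 7 of 16 alternatives, including those without CB1 replicate 3 (adjusted p = 0.0122) or Vector replicate 3 (0.0224).

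All 9 listed transcription factors and cofactors known to act on these genes were tested, with 3 higher and 3 lower. HIF1A, the oxygen-regulated subunit of hypoxia-inducible factor 1, fell to 463.4 ± 43.6 CPM in CB1, against 914.9 ± 7.13 CPM in Vector (SD, n = 3 each, log2 difference -0.98 ± 0.08, edgeR adjusted p = 1.63e-06). PPARGC1A, a coactivator of mitochondrial genes, had 64, 70 and 100 counts in CB1 and 248, 265 and 259 in Vector (-1.73 ± 0.15, adjusted p = 4.27e-06). Neither gene had overlapping groups. PPARGC1A averaged 0.407 FPKM in CB1 and 1.36 FPKM in Vector. It therefore passed the minimum of 0.5 FPKM only through Vector, and its call as lower was largely fixed beforehand. The E-box factors differed in direction, with USF2 higher (0.49, adjusted p = 1.96e-04) and USF1 lower (-0.38, adjusted p = 0.00549). MYC did not pass (-0.12), except with library totals alone (adjusted p = 0.0299), with limma on TPM (0.00478) and without CB1 replicate 1 (-0.18, adjusted p = 0.00266), and ARNT, the partner of HIF1A, did not pass in any alternative (-0.16). Transcript levels say nothing here of HIF1A protein, which is set mainly by its breakdown.

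Of the nearest tested protein-coding genes on either side of each member, 20 in all, 5 were called higher, 6 lower and 9 neither. Over all tested genes 24.4% were called higher and 25.4% lower, and nothing is read from the neighbour count. The neighbours of SLC16A1 were RHOC, 204413 bases away and higher by 0.53 on the log2 scale (edgeR adjusted p = 3.90e-04), and LRIG2, 116196 bases away and not called (-0.27, adjusted p = 0.0793). The genes whose log2 CPM followed SLC16A1 most closely over the 6 libraries were INTS5, PABPC1, TINAGL1, DPYSL5 and ID2, with Pearson r from 0.99877 to 0.99908. Since the 6 points form 2 groups, high values are common. Of 11705 protein-coding genes, 1397 reached r of at least 0.95 and 188 reached r of at least 0.99.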

How the data were processed

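Poly(A) RNA from the 6 libraries was sequenced by the authors. Per the labels, HISAT2 2.0.5 and featureCounts 1.5.0-p3 were used. The deposited counts are raw and whole, not normalised by the authors, and the deposited FPKM values are those counts per gene length and library total, times 1 constant per library. Gene coordinates are those of the tables (GENCODE release 29, GRCh38).

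The 15289 of 58735 genes that averaged 0.5 FPKM or more were tested on the counts with the edgeR quasi-likelihood test (two-sided, TMM scaling, Benjamini-Hochberg adjustment over all genes tested, threshold 0.05). Totals of 16957881 to 18833661 counts and a common biological coefficient of variation of 8.51% set the precision. Members and gene lists were chosen with earlier results of these data known. Named genes were the members, CNR1, the nearest neighbours and 5 closest correlates of SLC16A1, up to 4 genes of each list that passed with the smallest p and up to 2 that did not pass with the highest FPKM. For 1 listed gene the values are not reported here, though it is in the counts. Alternatives were DESeq2, limma on log2 FPKM or TPM, other scaling and filters, a replicate block and each library left out. Versions were edgeR 4.0.16, DESeq2 1.42.0 and limma 3.58.1 in R 4.3.3, and the procedure was tested on simulated data.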

Additional observations from a re-analysis of the deposited data

How the results depend on the processing

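SLC16A1, SLC16A3, BSG, LDHA, PDK1 and PDK3 kept their direction and their call in every alternative in which they were tested. SLC16A1 was not tested with the minimum of 1 FPKM in each group. The members were picked with this comparison known, and SLC16A1 passed the main minimum of 0.5 FPKM only through CB1. The kept calls therefore describe the settings and give no support for a difference. The log2 difference of SLC16A1 ran from 1.65 to 3.24, the lowest being on log2(FPKM + 1). The number of members called lower was 1 in place of 0 with limma on TPM and without the abundance minimum, and 0 to 1 with each library left out, the 1 being LDHB. Pathway genes called higher fell to 5 of 42 with limma on TPM, against 11, and ran from 8 to 12 with each library left out. The median log2 difference of all tested genes moved to -0.12 on the TPM scale and 0.17 without the minimum. Signs of small differences turned for MPC1 (-0.0013 with library totals alone, -0.047 with limma on TPM, -0.011 without CB1 replicate 1, -0.018 without Vector replicate 3), SLC16A7 (-0.057 with limma on TPM, -0.016 without CB1 replicate 3), HAGH (-0.050 with library totals alone, -0.10 with limma on TPM, -0.016 without the minimum, -0.067 without CB1 replicate 1) and ME2 (-0.034 with limma on TPM), and with each library left out the log2 differences of the first 3 ran from -0.018 to 0.16, -0.016 to 0.22 and -0.067 to 0.083. The cause was not tested. Whether replicate numbers pair the libraries was not settled. Correlations of the deviations of same-numbered libraries from their group means were -0.14, -0.08 and -0.03. With 3 libraries a group, such values cannot show that pairing was absent. With a replicate block 7142 genes were called, against 7607, with 6 members higher and 11 pathway genes higher and 18 lower. With 3 libraries a group and Vector counts of 33 to 36, the fold of SLC16A1 is less precise than that of the abundant members.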
